A study of Mus musculus with 12 samples.

Results

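CD8+ T cells from tumours given the radiotherapy mode labelled SRT-like were compared with CD8+ T cells from untreated tumours, across every probe of an immune gene panel. The samples were taken by their treatment label alone, 3 labelled SRT-like and 3 labelled Nontreated, which makes 6 of the 12 samples of the series, and all 773 probes entered. MC38 cells, a mouse colon carcinoma line, were grown in C57BL/6J mice. Per the labels' protocols, radiation of 20 Gy was given to tumours of 40 to 100 mm3, and CD8+ T cells were sorted from digested tumours after enrichment on CD45. Lysates of 1000 to 5000 cells per microlitre were read on a NanoString nCounter panel for mouse immune exhaustion, which counts barcoded probes on RNA molecules without amplification.

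The Nontreated group holds the controls and the SRT-like group 1 of the 3 radiotherapy modes, the others being SRT and CRT. The labels do not spell out these names, name no genotype beyond the strain, and give neither the number of fractions, the time of harvest nor the age of the mice. Both groups share the strain, the tumour line, the digestion and the sort. Nothing says that samples came from different mice, so the p-values reflect the scatter of these samples alone, part or all of which may be technical. The SRT-like samples carry the sample numbers 10, 11 and 12 and the Nontreated samples 1, 6 and 7. The labels name no batch, and an order of handling along these numbers cannot be told apart from the treatment.

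CD8+ T cells kill tumour cells by releasing perforin and granzymes and by secreting interferon-gamma and TNF. In tumours, lasting antigen contact moves them towards exhaustion, a state with high levels of inhibitory receptors such as PD-1 and of the factor TOX, while a stem-like fraction keeps TCF-1. Type I interferon, which irradiated tumours are known to release when DNA reaches the cytosol, acts through its receptor and the STAT proteins to switch on antiviral genes in most cell types, T cells included.

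Recovered molecule counts were 366987, 467904 and 118694 in Nontreated replicates 1 to 3 and 421066, 299545 and 267514 in SRT-like replicates 1 to 3, so Nontreated replicate 3 was the shallowest. Values are log2 normalized counts. Above background means above the mean plus 2 SD of 26 probes for genes of other tissues or a virus in the same sample, a level of 3.46 to 3.66 in Nontreated replicates 1 and 2, 4.96 in replicate 3 and 3.95 to 4.39 in SRT-like. Of the 773 probes, 432 were above background in all 6 samples. In counts of list members, not above background means above background in all 3 samples of neither group. Single samples of such a gene may still lie above background. The T cell genes Cd3d, Cd3e, Cd3g, Cd8a and Cd8b1 were above background in all 6, whereas Cd4, the B cell gene Ms4a1, and Csf1r and Cd14 of monocytes were so in 0 of 6. Other markers of such cells were above background, Cd68 of macrophages, H2-Aa, H2-Ab1 and Itgax of dendritic cells and Pecam1 of endothelium in 6 of 6, Foxp3 of regulatory T cells in 5 and Cd79b of B cells in 4. The median difference over all probes, SRT-like minus Nontreated, was 0.15, and 500 of the 773 probes (64.7%) lay higher in SRT-like. Centring each sample on its own median lowers every difference by 0.18, so that any difference or list median between 0 and 0.18 below turns negative on that scale.

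Cd80, Rsad2, Klf2, Ccr1 and Tnfsf9 rose in SRT-like past the adjusted threshold of 0.05, and no probe was lower past it. These 5 probes were 0.647% of those tested, each with an adjusted p of 0.0421 by limma over the 773 probes. Before adjustment, 80 probes (10.3%) were higher and 6 (0.776%) lower at a p under 0.05. In 102 probes (13.2%) all 3 SRT-like samples lay above all 3 controls, and in 24 (3.1%) below them.

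Cd80 encodes B7-1, a ligand of the activating receptor CD28 and of the inhibitory receptor CTLA-4. It measured 7.17, 5.46 and 5.86 in Nontreated replicates 1 to 3 and 8.04, 8.56 and 8.29 in SRT-like replicates 1 to 3. The counts behind these values were 230, 84 and 29 molecules against 427, 398 and 325. The groups did not overlap, and Nontreated replicate 1 lay nearest to the SRT-like samples. The rise was 4.39-fold (95% interval 2.45 to 7.86), a log2 difference of 2.13 ± 0.38 (SE, n = 3 per group). In bulk samples, more cells of a kind and more RNA per cell cannot be told apart.

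Rsad2 encodes viperin, an interferon-induced enzyme that blocks viral replication. Its values were 3.57, 4.53 and 4.46 in Nontreated, from 19, 44 and 11 molecules, and 5.68, 6.15 and 6.34 in SRT-like, from 83, 75 and 84. All 3 SRT-like samples lay above all controls, and 2 of the 3 controls were above background. The rise was 3.65-fold (95% interval 2.14 to 6.24), or 1.87 ± 0.35 on the log2 scale.

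Klf2 encodes a transcription factor of quiescent and recirculating T cells, which is lost when T cells settle in tissue. It stood at 5.89, 5.24 and 5.25 in Nontreated and at 6.66, 6.92 and 7.19 in SRT-like, again without overlap. The difference was 1.46 ± 0.27, a 2.76-fold rise.

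Ccr1, a receptor for inflammatory chemokines such as CCL3 and CCL5, measured 4.61, 4.02 and 4.33 in Nontreated and 5.76, 5.62 and 5.93 in SRT-like. It rose 2.74-fold (1.45 ± 0.24). Tnfsf9, which encodes the ligand of the co-stimulatory receptor 4-1BB, measured 4.27, 4.59 and 4.17 against 5.06, 5.73 and 5.68 and rose 2.20-fold (1.14 ± 0.21). For both genes the groups did not overlap and 2 of the 3 controls were above background, Nontreated replicate 3 being the exception.

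**Figure D1:**
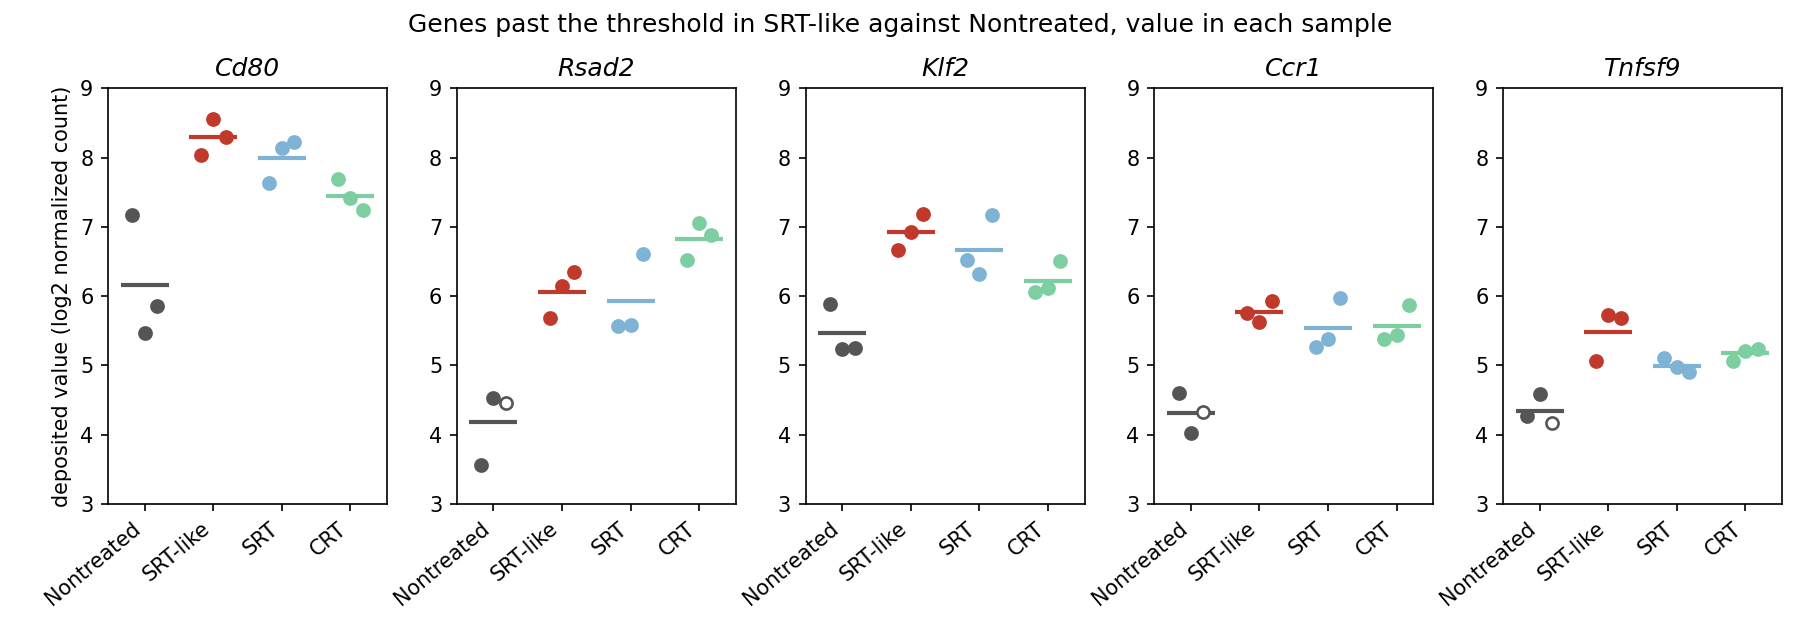
Deposited log2 normalized counts of the 5 genes past the threshold, 1 point per sample and a bar at each group mean, with open points for values not above background in that sample. In SRT-like all 3 points lie above the 3 Nontreated points in every panel. The SRT and CRT samples are drawn for comparison.

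The calls depended on single libraries. With 1 sample left out, 0 probes passed without Nontreated replicate 2 or 3, SRT-like replicate 2 or 3, SRT replicate 1 or 2, or any 1 of the 3 CRT replicates. Ccr1, Cd80 and Klf2 passed without Nontreated replicate 1, Tnfsf9 alone without SRT-like replicate 1, and 9 probes without SRT replicate 3. Median centring, quantile normalization, a floor at background and a fit of the 6 samples alone each left 0 calls, while sample weights or limma's voom on the molecule counts gave 15. The 5 differences were positive under all of these settings. Leaving out a sample could not turn their sign, as the groups did not overlap and SRT and CRT samples do not enter them.

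The next probes by unadjusted p were Il10ra, Ifit3/3b, Gzmd and Mx2, each with an adjusted p of 0.0846. Il10ra, a chain of the interleukin-10 receptor, measured 8.12, 8.22 and 8.03 in Nontreated and 8.80, 8.79 and 9.11 in SRT-like, a difference of 0.78 ± 0.16 from 130 to 724 molecules per sample. Its difference was small beside that of Cd80, but so was its spread.

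**Figure D2:**
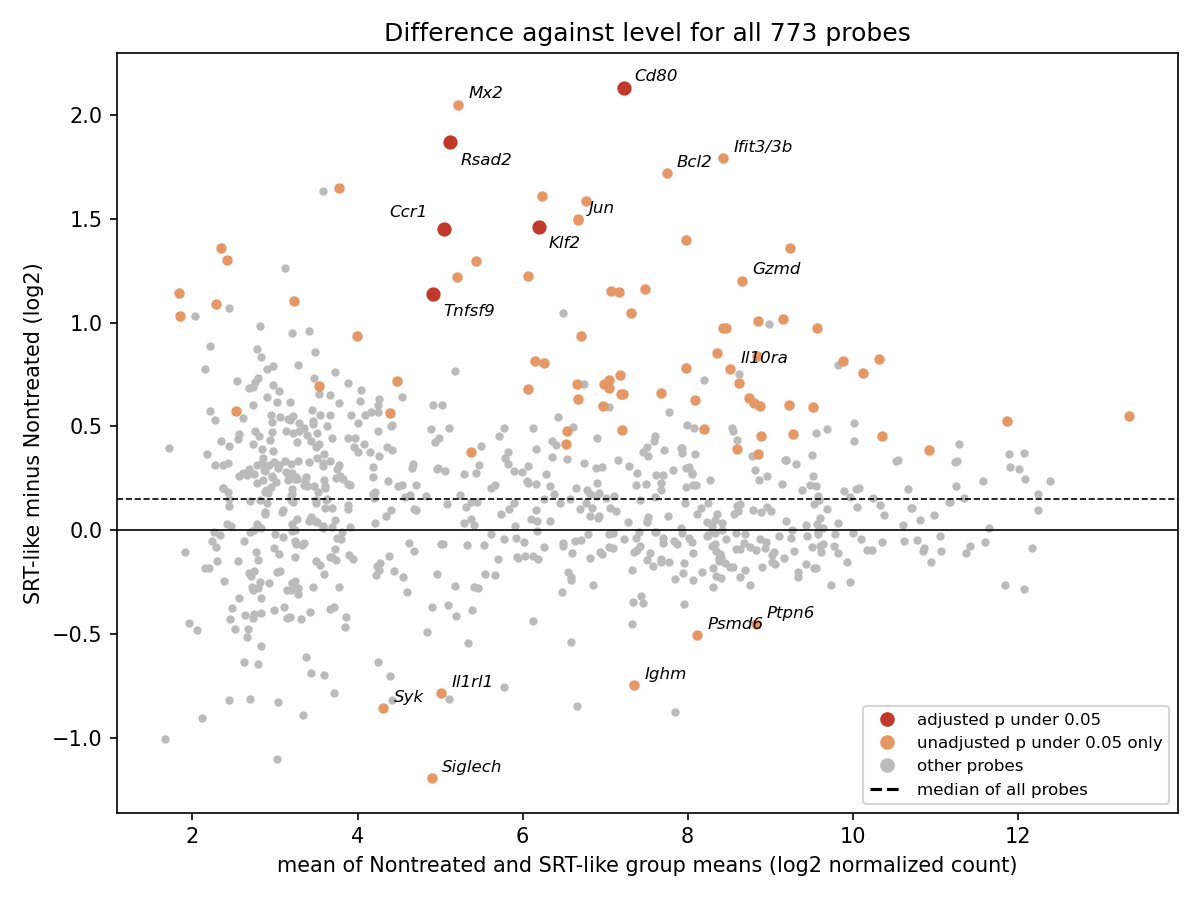
SRT-like minus Nontreated (log2) against the mean level of the 2 groups for all 773 probes, with red for the 5 probes past the threshold, orange for the other probes with an unadjusted p under 0.05 and a dashed line at the median of all probes, 0.15. Orange points lie mostly above 0, with 80 higher and 6 lower probes at an unadjusted p under 0.05 when the red points are included.

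Genes switched on by type I interferon were higher in SRT-like throughout the list written for them. All 12 measured members had positive differences, and 1 of them, Rsad2, passed the threshold, beside 0.647% of all probes. In 11 of the 12 members the groups did not overlap, beside 13.2% of all probes. Their median difference was 1.36, against 0.15 over all probes, and it was 1.18 with median centring and 1.13 with quantile normalization. The mean of the 12 members was 5.83, 6.67 and 6.51 in Nontreated replicates 1 to 3 and 7.27, 7.61 and 8.09 in SRT-like replicates 1 to 3.

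Ifit3/3b is 1 probe for a pair of near-identical genes whose products bind viral RNA complexes. It measured 6.94, 8.17 and 7.50 in Nontreated, and 8.88, 9.22 and 9.89 in SRT-like, a difference of 1.79 ± 0.39. Ifit1, which encodes a protein that recognises foreign RNA caps, measured 5.55, 6.83 and 5.40 against 7.05, 7.12 and 8.10, a difference of 1.50 ± 0.42 (adjusted p = 0.211). In both, Nontreated replicate 2 was the highest control.

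Mx1 and Mx2 encode antiviral GTPases. Mx2 measured 3.49, 4.62 and 4.46 in Nontreated, where 2 of 3 samples were above background, and 5.63, 6.31 and 6.80 in SRT-like (2.05 ± 0.46). Mx1 measured 5.10, 6.51 and 6.33 against 6.96, 7.66 and 8.07 (1.59 ± 0.45). SRT-like replicate 1 was the lowest and replicate 3 the highest of its group in both.

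The oligoadenylate synthetases, which make the messenger that activates RNase L, gave differences of 1.61 ± 0.45 for Oas3, 1.22 ± 0.39 for Oas2 and 1.15 ± 0.33 for Oas1a. Oas3 measured 4.81, 5.24 and 6.25 in Nontreated and 6.55, 7.13 and 7.45 in SRT-like. Bst2, which encodes the virus-tethering protein tetherin, differed by 0.98 ± 0.31, the interferon-induced Xaf1 by 0.97 ± 0.29 and Rnf213, an interferon-induced ubiquitin ligase gene, by 0.84 ± 0.27. Gbp2, a guanylate-binding protein gene that interferon-gamma induces strongly, was the member whose groups overlapped, with 6.94, 7.58 and 7.23 against 7.41, 7.39 and 7.79 (0.28 ± 0.24).

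**Figure D3:**
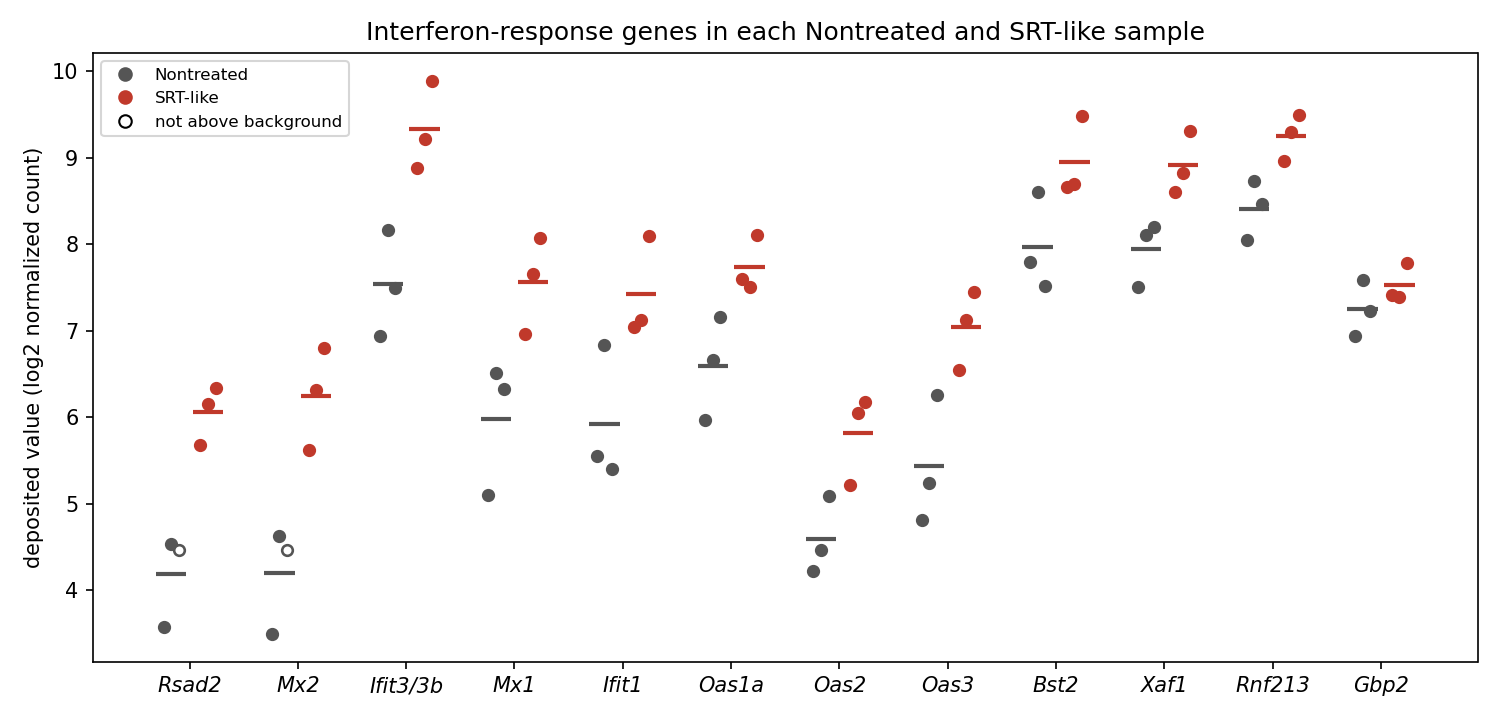
Deposited log2 normalized counts of the 12 measured interferon-response genes in the 3 Nontreated (grey) and 3 SRT-like (red) samples, with bars at the group means and open points for values not above background in that sample. Groups are apart in every gene but Gbp2, and SRT-like replicate 3, the right-hand red point, is the highest red point of each gene.

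The promoters of 4 of these genes, taken by smallest p among those in the RefSeq table, are shown because the members moved together and share a known control element, the interferon-stimulated response element bound by ISGF3. Each window is in the RefSeq GRCm38.p6 assembly, runs 5′ to 3′ on the gene's strand from 250 bases before to 50 after the annotated start, and has matches to GAAANNGAAA on either strand in capitals. Rsad2 lies at chr12:26456403-26456702 on the minus strand, Ifit3 at chr19:34583279-34583578 on the plus strand, Oas3 at chr5:120777610-120777909 on the minus strand and Ifit1 at chr19:34640639-34640938 on the plus strand.
Rsad2: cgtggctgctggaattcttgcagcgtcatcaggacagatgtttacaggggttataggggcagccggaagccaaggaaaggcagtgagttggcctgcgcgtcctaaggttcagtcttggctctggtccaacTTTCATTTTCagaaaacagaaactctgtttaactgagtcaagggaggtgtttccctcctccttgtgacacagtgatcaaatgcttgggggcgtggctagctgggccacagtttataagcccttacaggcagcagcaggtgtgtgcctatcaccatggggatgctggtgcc
Ifit3: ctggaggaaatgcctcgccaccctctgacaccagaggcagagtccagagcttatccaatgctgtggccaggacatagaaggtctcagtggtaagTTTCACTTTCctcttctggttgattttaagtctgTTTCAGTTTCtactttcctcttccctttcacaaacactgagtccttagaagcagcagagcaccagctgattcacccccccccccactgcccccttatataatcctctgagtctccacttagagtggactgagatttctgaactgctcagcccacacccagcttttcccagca
Oas3: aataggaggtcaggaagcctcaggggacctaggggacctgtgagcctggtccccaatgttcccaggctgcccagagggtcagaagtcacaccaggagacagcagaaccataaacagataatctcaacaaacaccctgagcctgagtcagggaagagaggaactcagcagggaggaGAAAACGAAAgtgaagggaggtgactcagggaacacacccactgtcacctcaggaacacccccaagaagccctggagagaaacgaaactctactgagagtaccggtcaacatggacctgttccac
Ifit1: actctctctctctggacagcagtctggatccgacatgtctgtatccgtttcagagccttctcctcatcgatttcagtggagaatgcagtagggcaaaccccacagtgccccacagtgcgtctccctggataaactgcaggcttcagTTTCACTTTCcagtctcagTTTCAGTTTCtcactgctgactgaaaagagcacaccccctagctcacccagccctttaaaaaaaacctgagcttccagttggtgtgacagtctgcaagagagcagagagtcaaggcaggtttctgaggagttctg
The match of Rsad2 starts at -120 from the annotated start, that of Oas3 at -75, those of Ifit3 at -156 and -122 and those of Ifit1 at -104 and -85. These letters were found in 8 of 10 windows of the list (9 of its 12 probes had a window, the Ifit3/3b probe having 2), and in 1131 of all 32851 windows of the table (3.44%). The windows without a match were those of Xaf1 and Rnf213, and among the other genes that rose no match lay in the windows of Ccr1, Cd80 and Klf2, while Tnfsf9 was not examined. The list was written for genes known to respond to type I interferon, so a high share of matches follows from that choice. It says nothing of these samples. A match describes the letters of the window and was not tested as a site, and the action of ISGF3 here was not tested.

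Genes that sense or relay interferon differed less. Of 8 measured receptors, sensors and factors, 6 were higher and 2 lower, 0 passed, and their median was 0.15. Tyk2, a kinase of the type I receptor, differed by 0.44 ± 0.27 and Tbk1, the kinase downstream of cytosolic nucleic acid sensors, by 0.29 ± 0.20. Irf8, a factor of T cell and myeloid differentiation, was at -0.09 ± 0.16.

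Among 13 cytotoxic granule genes, 12 were higher and 1 lower, 0 passed, and 4 lay higher without overlap (beside 13.2% of all probes). The median was 0.34, or 0.16 with median centring, 0.20 with quantile normalization and 0.61 without SRT-like replicate 2. Gzmd, Gzme and Gzmf, granzymes of close sequence that long-stimulated mouse T cells express, had the smallest p of the list. Gzmd measured 7.75, 8.19 and 8.23 in Nontreated and 9.42, 9.19 and 9.17 in SRT-like (1.20 ± 0.27), and Gzmf 8.28, 8.73 and 8.65 against 10.02, 9.74 and 9.98 (1.36 ± 0.43). Gzme differed by 0.94 ± 0.26, also without overlap. By size Gzmg came first at 1.64 ± 0.74, with overlap and without being above background in all 3 samples of either group, and Gzma differed by 0.99 ± 0.52 without overlap. Because these relatives are alike in sequence, the probes may take up each other's RNA.

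Gzmb, the main granzyme of mouse killer T cells, measured 9.31, 10.55 and 9.85 in Nontreated and 10.52, 10.58 and 11.09 in SRT-like. Nontreated replicate 2 reached the level of SRT-like replicates 1 and 2, and the difference was 0.83 ± 0.33 (adjusted p = 0.353). Prf1, which encodes perforin, measured 9.46, 9.67 and 9.58 against 9.53, 9.72 and 9.64, a difference of 0.06 ± 0.23 with an interval of -0.46 to 0.58.

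Effector cytokines went both ways, 7 higher and 6 lower of 13, with a median of 0.10, 0 past the threshold and 6 members not above background. Tnf measured 5.95, 6.83 and 6.71 in Nontreated and 6.81, 8.12 and 8.01 in SRT-like (1.15 ± 0.36, adjusted p = 0.255). Ifng, which encodes interferon-gamma, measured 10.91, 11.55 and 10.78 against 11.00, 11.88 and 11.60 (0.41 ± 0.35), and Csf2, the gene of the growth factor GM-CSF, differed by 0.70 ± 0.35. In all 3 genes the groups overlapped.

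Immediate early genes, which T cells switch on within minutes of a stimulus, were all 5 higher, with a median of 0.49 and 0 past the threshold. Jun, a subunit of AP-1, measured 6.58, 6.18 and 5.00 in Nontreated and 6.63, 7.86 and 7.77 in SRT-like (1.50 ± 0.42, adjusted p = 0.211). SRT-like replicate 1 lay just above the highest control and the other 2 SRT-like samples more than 1 above it. Fos, its partner, measured 6.42, 7.47 and 6.46 against 7.28, 7.96 and 8.25 (1.05 ± 0.43). In Tnf, Nr4a1, Nfkbia and Ccl4 too, SRT-like replicate 1 was the lowest of its group and lay within the range of the controls.

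All 9 measured MHC class I and antigen processing genes were higher, with 7 not overlapping (beside 13.2% of all probes), 0 past the threshold and a median of 0.49. H2-T23, which encodes Qa-1, the ligand of the NKG2A receptor, measured 8.39, 8.53 and 9.01 in Nontreated and 9.41, 9.90 and 9.68 in SRT-like (1.02 ± 0.34, adjusted p = 0.26). The classical class I gene H2-K1 measured 12.99, 12.88 and 13.36 against 13.52, 13.78 and 13.58 (0.55 ± 0.23). Psmb9 and Psmb10, subunits of the immunoproteasome, differed by 0.46 ± 0.15 and 0.49 ± 0.17 without overlap. Class I genes are close in sequence, so a probe may take up RNA of a relative.

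Of 10 stem-like and memory genes, 7 were higher and 3 lower, with a median of 0.46 (0.24 without Nontreated replicate 3, 0.21 with quantile normalization), 4 higher without overlap (beside 13.2% of all probes) and Klf2 past the threshold (beside 0.647%). Il7r, the receptor chain for interleukin-7 that sustains memory cells, measured 9.16, 8.75 and 9.32 in Nontreated and 10.17, 10.14 and 9.85 in SRT-like (0.97 ± 0.32, adjusted p = 0.26). Tcf7, which encodes TCF-1, measured 7.85, 7.35 and 7.27 against 7.90, 8.02 and 8.26 (0.57 ± 0.33), so that Nontreated replicate 1 lay just below SRT-like replicate 1. Slamf6, a surface marker of stem-like exhausted cells, was at -0.12 ± 0.21, and Xcl1, a chemokine that attracts cross-presenting dendritic cells, at 0.43 ± 0.28.

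Of 11 residency and adhesion genes 10 were higher, with a median of 0.50, 3 higher without overlap (beside 13.2% of all probes) and 0 past the threshold. Zfp683, which encodes the residency factor Hobit, measured 5.32, 3.77 and 5.25 in Nontreated and 6.09, 6.44 and 5.71 in SRT-like (1.30 ± 0.40, adjusted p = 0.255). Itgae, the integrin chain CD103 that holds T cells in epithelia, measured 6.14, 6.30 and 5.46 against 6.95, 7.29 and 6.81 (1.05 ± 0.50). Cd69, an early activation and retention marker, measured 6.65, 7.44 and 6.59 against 7.42, 8.20 and 8.55 (1.16 ± 0.35), where SRT-like replicate 1 lay just under the highest control. Ccl5, a chemokine of effector and memory CD8 cells, was higher by 0.53 ± 0.22 without overlap.

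Bcl2, the anti-apoptotic gene that interleukin-7 sustains, stood alone in the survival list. It measured 7.44, 6.01 and 7.19 in Nontreated and 8.37, 8.86 and 8.58 in SRT-like, from 73 to 278 against 397 to 535 molecules, and differed by 1.72 ± 0.46 (adjusted p = 0.211). The other 7 members, among them Xiap at -0.26 ± 0.17 and Bid at -0.21 ± 0.28, left the list with 3 higher, 5 lower and a median of -0.08.

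Inhibitory receptors, the hallmark of exhaustion, had a median of 0.18 over 20 genes, 14 higher and 6 lower, with 3 higher without overlap and 0 past the threshold. Both counts were near the shares of all probes, 64.7% higher and 13.2% higher without overlap. Pdcd1, which encodes PD-1, measured 11.59, 11.84 and 12.15 in Nontreated and 12.19, 12.39 and 11.89 in SRT-like (0.30 ± 0.25, interval -0.26 to 0.85). Havcr2, the gene of TIM-3, differed by 0.32 ± 0.19 (interval -0.11 to 0.75), Lag3 by -0.10 ± 0.27 (-0.71 to 0.50), Ctla4 by 0.05 ± 0.19 (-0.36 to 0.46) and Tigit by 0.02 ± 0.21 (-0.45 to 0.50). All 5 were above background in every sample, and their groups overlapped.

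The members of that list with the smallest p were Cd244a, the gene of the SLAM-family receptor 2B4, at 6.32, 5.80 and 6.94 against 6.98, 7.02 and 6.95 (0.63 ± 0.25), and Pvrig, a receptor of the nectin family, at 6.77, 6.22 and 7.05 against 7.36, 7.43 and 7.05 (0.60 ± 0.24). For both, Nontreated replicate 3 reached or nearly reached the lowest SRT-like sample. Cd96 and Vsir, the latter the gene of VISTA, differed by 0.39 ± 0.18 and 0.34 ± 0.17.

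Of 8 inhibitory ligands and enzymes, 4 were higher and 4 lower, with a median of 0.21 and 4 not above background. Cd274, which encodes PD-L1 and is induced by interferons, measured 8.24, 8.10 and 8.45 in Nontreated and 8.78, 9.13 and 9.00 in SRT-like (0.71 ± 0.24, adjusted p = 0.26), without overlap. Lgals9, the gene of galectin-9, differed by 0.44 ± 0.20.

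Of 18 transcription factors of exhaustion and effector fate, 13 were higher and 5 lower, with a median of 0.16 and 0 past the threshold. Prdm1, which encodes Blimp-1, a factor of terminal effector and resident cells, measured 6.82, 7.04 and 6.73 in Nontreated and 7.36, 7.47 and 7.73 in SRT-like (0.66 ± 0.21, adjusted p = 0.255). Tbx21, the gene of T-bet, differed by 0.63 ± 0.27 and Nr4a1, an immediate early factor of T cell receptor signalling, by 0.82 ± 0.32, both with overlapping groups. Tox, the factor that installs the exhaustion programme, measured 7.75, 7.63 and 7.53 against 7.28, 7.14 and 7.43 (-0.35 ± 0.19), with all SRT-like samples below all controls, as in 3.1% of probes.

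In the B7 and CD28 family, 6 of 9 members were higher and 3 lower, with a median of 0.11, 4 higher without overlap (beside 13.2% of all probes) and Cd80 past the threshold (beside 0.647%). Cd226, the activating receptor DNAM-1, measured 8.71, 8.72 and 8.32 in Nontreated and 9.03, 9.27 and 9.23 in SRT-like (0.60 ± 0.17, adjusted p = 0.211). Cd86, the other B7 ligand of CD28, measured 6.90, 7.00 and 7.00 against 7.44, 7.29 and 7.61 (0.48 ± 0.17). The difference of Cd80 was thus 2.13 where that of Cd86 was 0.48.

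Of 12 measured TNF superfamily genes, 9 were higher and 3 lower, beside 64.7% higher of all probes. Their median was 0.18, and Tnfsf9 was past the threshold, beside 0.647% of all probes. Its receptor gene, Tnfrsf9, measured 12.09, 12.22 and 12.32 in Nontreated and 12.10, 12.37 and 11.91 in SRT-like (-0.09 ± 0.20). Tnfsf4, the ligand of OX40, measured 6.70, 6.00 and 6.21 against 6.86, 6.85 and 7.32 (0.70 ± 0.27), and Tnfrsf1a, a TNF receptor, differed by 0.55 ± 0.25.

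Among 6 chemokine receptors, 4 were higher and 2 lower, beside 64.7% higher of all probes. Their median was 0.34, and Ccr1 was past the threshold, beside 0.647% of all probes. Cxcr3, the receptor of the interferon-induced chemokines CXCL9 and CXCL10, measured 7.15, 7.66 and 7.23 in Nontreated and 8.05, 7.78 and 8.19 in SRT-like (0.66 ± 0.22, adjusted p = 0.26). Ccr2, a receptor of inflamed-tissue homing, differed by 0.49 ± 0.28. The ligand gene Cxcl9 itself was at -0.81 ± 0.48, with 6.36, 5.46 and 4.71 against 5.14, 5.01 and 3.95, 1 sample per group being at background. Of 13 chemokine ligands, 8 were above background in all 3 samples of neither group, Cxcl9 among them.

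Of 25 interleukin receptor and JAK-STAT genes, 16 were higher and 9 lower, with a median of 0.10 and 0 past the threshold. After Il10ra, the smallest p belonged to Cish, a cytokine-induced inhibitor of T cell receptor signals, at 7.63, 7.94 and 8.23 against 8.36, 9.13 and 8.88 (0.85 ± 0.28). Socs2, another STAT-induced inhibitor, differed by 0.81 ± 0.32, with Nontreated replicate 3 low at 5.00 beside 6.31 and 6.25 in the other controls.

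The T cell receptor and its proximal signalling genes had 19 higher and 5 lower of 24, with a median of 0.14 and 0 past the threshold. Cd8a measured 10.80, 10.87 and 10.53 in Nontreated and 11.19, 11.17 and 11.00 in SRT-like (0.39 ± 0.16), whereas Cd8b1 differed by 0.14 ± 0.28 and Cd3e by 0.10 ± 0.16. The adaptor gene Grap2 was the highest of the list at 0.61 ± 0.21. Ptpn6 and Ptpn11, which encode the phosphatases SHP-1 and SHP-2, lay at -0.45 ± 0.19 and -0.27 ± 0.16, with all SRT-like samples below all controls.

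Signalling lists further downstream had medians near 0, below the 0.15 of all probes, and shares of higher members below the 64.7% of all probes. NF-kB genes had 5 higher and 5 lower of 10 with a median of 0.08, led by Nfkbia, the feedback inhibitor, at 0.76 ± 0.30 and the scaffold protease gene Malt1 at 0.60 ± 0.24. PI3K, AKT and mTOR genes had 4 higher and 11 lower of 15 with a median of -0.04, and MAPK and RAS genes 8 higher and 8 lower of 16 with a median of 0.00, led by the kinase gene Map3k8 at 0.66 ± 0.23. No member of these 3 lists passed.

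The 8 death receptor and caspase genes were all higher, with a median of 0.29. Of 7 p53 and DNA damage genes 5 were higher, beside 64.7% of all probes, with a median of 0.30. These medians were 0.11 and 0.12 with median centring, and 0.16 and 0.046 with quantile normalization. No member of either list passed. Fas, a death receptor that p53 induces, measured 5.45, 5.53 and 5.59 in Nontreated and 5.68, 6.41 and 5.95 in SRT-like (0.49 ± 0.25). Sesn1, a p53 target of the stress response, differed by 0.41 ± 0.25 and the checkpoint kinase gene Chek1 by 0.38 ± 0.17. Cell cycle genes had 5 higher and 4 lower of 9 with a median of 0.02. The cyclin gene Ccnb3 had the smallest p and the largest difference of the list, 1.36 ± 0.35 without overlap (adjusted p = 0.209), and was not above background in all 3 samples of either group. Among the lower members were the mitotic cyclin gene Ccnb1 at -0.54 ± 0.35 and the phosphatase gene Cdc25a at -0.24 ± 0.21. Metabolic lists had medians of 0.13 for 5 mitochondrial genes, -0.04 for 6 lipid genes and -0.13 for 6 amino acid genes, with 0 members past the threshold.

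**Figure D4:**
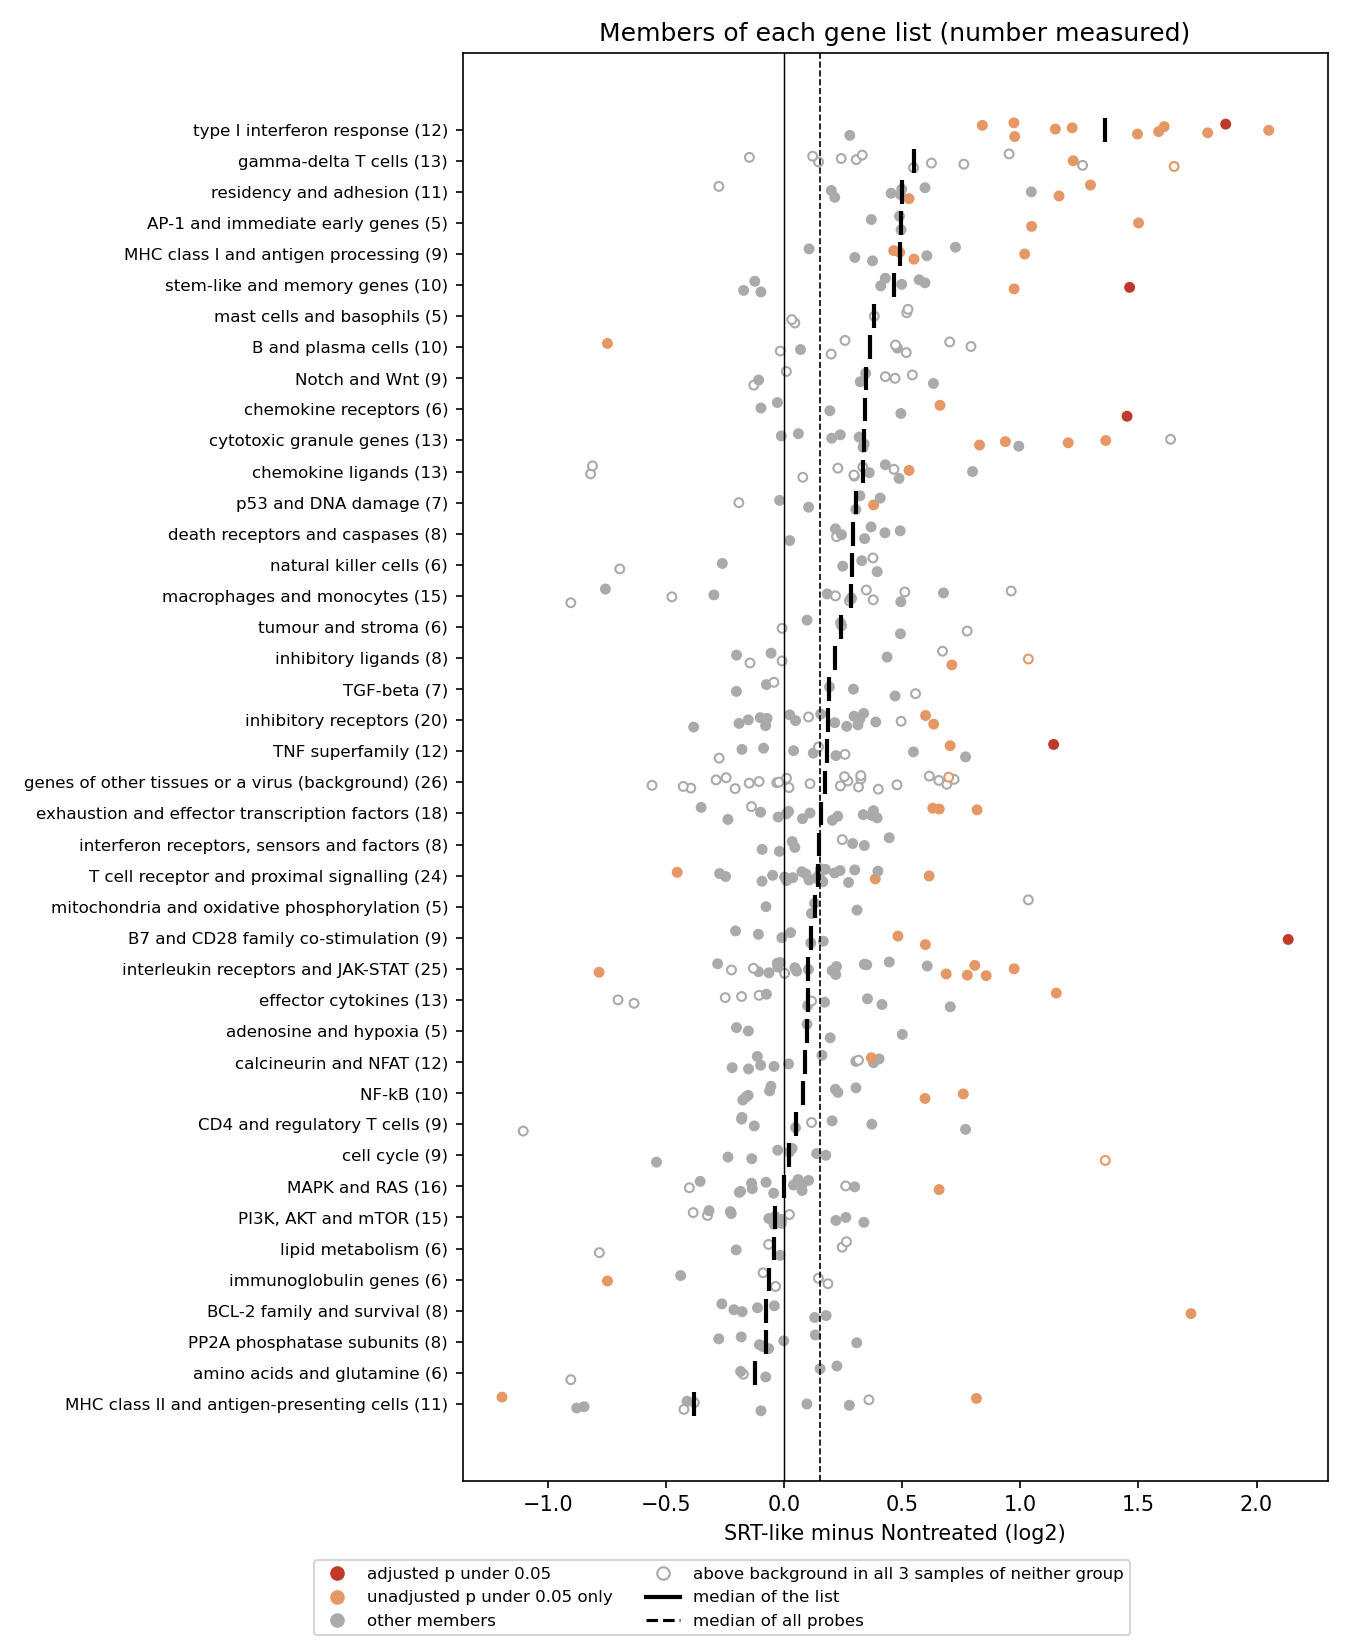
SRT-like minus Nontreated (log2) of the members of each gene list with 5 or more measured, 1 point per probe, a bar at the list's median and a dashed line at the median of all probes (0.15). Open points mark probes that were above background in all 3 samples of neither group. The interferon list lies farthest to the right, with a median of 1.36, and MHC class II and antigen-presenting cell genes farthest to the left, with -0.38.

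The 6 probes lower at an unadjusted p under 0.05 were Siglech, Syk, Ighm, Il1rl1, Psmd6 and Ptpn6, and 0 of them passed the threshold. The MHC class II and antigen-presenting list had 4 higher and 7 lower of 11 members, with a median of -0.38. Siglech, a marker of plasmacytoid dendritic cells, which are known producers of type I interferon, measured 5.07, 5.28 and 6.13 in Nontreated and 3.55, 4.31 and 5.04 in SRT-like, where 1 of 3 samples was above background. Its difference was -1.20 ± 0.44 (adjusted p = 0.305) and is bounded by that background. H2-Aa, a class II chain, measured 8.86, 8.19 and 7.80 against 7.54, 7.44 and 7.24 (-0.88 ± 0.57), while the dendritic cell integrin gene Itgax, which activated T cells also express, was at 0.81 ± 0.26.

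Ighm, the immunoglobulin M heavy chain gene of B cells, measured 7.51, 8.02 and 7.65 in Nontreated and 7.19, 6.44 and 7.30 in SRT-like (-0.75 ± 0.26, adjusted p = 0.26). Syk, a kinase of B and myeloid cell receptors, was at -0.86 ± 0.36 with 0 of 3 SRT-like samples above background. Tyrobp, the adaptor DAP12 of myeloid and NK cells, measured 6.10, 5.92 and 6.43 against 4.83, 5.44 and 5.90 (-0.76 ± 0.39). Of 10 B and plasma cell genes 8 were higher, and of 15 macrophage and monocyte genes 11, beside 64.7% of all probes. In these lists 7 of the 10 and 8 of the 15 were above background in all 3 samples of neither group. Psmd6, a proteasome subunit gene of all cells, was at -0.51 ± 0.18 without overlap, and Il1rl1, the receptor gene of interleukin-33, at -0.78 ± 0.35 with overlap.

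Summed over each list, normalized counts of the 11 class II and antigen-presenting genes were 2221 to 3609.5 in Nontreated and 1953 to 2921 in SRT-like. Those of the 15 macrophage and monocyte genes were 461 to 666 and 567 to 652, with 8 of the 15 not above background, 11 higher and 4 lower. Those of the 10 B and plasma cell genes were 266 to 371 and 228 to 307, with 7 not above background, 8 higher and 2 lower. Of all probes, 64.7% were higher. The 9 CD4 and regulatory T cell genes, most of which CD8 cells share, summed to 3435 to 3868 and 3635 to 3974, the 6 natural killer genes to 8814 to 11808 and 10609 to 11620.2, and the 6 tumour and stroma genes to 119 to 154 and 141 to 186. The groups overlapped in each of these sums, and of the markers of other cells some were above background in all 6 samples and others in 0, as given at the start. The part of these cells in the results above was not tested.

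The 13 gamma-delta T cell receptor probes had 12 higher and 1 lower with a median of 0.55, and 12 of the 13 were not above background. Their sum was 129, 113 and 315 in Nontreated and 269.7, 287 and 298 in SRT-like, so that Nontreated replicate 3, the shallow sample with the highest background, lay above all SRT-like samples. The 26 background probes had a median difference of 0.17 and averaged 2.43, 2.54 and 3.81 in Nontreated and 2.99, 3.12 and 3.10 in SRT-like.

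Against the other radiotherapy modes, no probe passed. Against SRT, 44 probes (5.69%) had an unadjusted p under 0.05, 12 higher (1.55%) and 32 lower (4.14%) in SRT-like. Against CRT there were 76 (9.83%), 23 higher (2.98%) and 53 lower (6.86%). The adjusted p were at least 0.718 and 0.369. The comparisons of SRT-like with SRT and with CRT share the 3 SRT-like samples.

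The 5 genes that rose over Nontreated did not differ from SRT past the threshold. They were picked for being high in the same SRT-like samples, which favours positive differences from SRT and CRT. The difference from SRT was 0.30 for Cd80 (95% interval -0.54 to 1.14), 0.13 for Rsad2 (-0.64 to 0.91), 0.26 for Klf2 (-0.35 to 0.86), 0.23 for Ccr1 (-0.30 to 0.76) and 0.49 for Tnfsf9 (0.04 to 0.95, adjusted p = 0.838). The widest of these intervals reaches up to 1.14, and none of them shows that the modes act alike. From CRT the differences were 0.85 for Cd80 (0.01 to 1.69), -0.76 for Rsad2 (-1.53 to 0.01), 0.70 for Klf2 (0.09 to 1.30), 0.20 for Ccr1 (-0.32 to 0.73) and 0.31 for Tnfsf9 (-0.14 to 0.77).

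For the 12 interferon genes the median difference was 0.13 against SRT and -0.75 against CRT, with 0 members past the threshold in either. Ifit1, for example, measured 7.05, 7.12 and 8.10 in SRT-like and 8.16, 8.76 and 8.25 in CRT (-0.97 ± 0.42, adjusted p = 0.497), without overlap. Ifit3/3b measured 8.88, 9.22 and 9.89 against 9.85, 10.38 and 9.97, where the highest SRT-like sample passed the lowest CRT sample.

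The 11 residency and adhesion genes had a median difference of 0.30 from CRT and 0.43 from SRT. Itgae measured 6.95, 7.29 and 6.81 in SRT-like and 5.86, 4.01 and 4.59 in CRT (2.19, interval 1.08 to 3.31), and Zfp683 6.09, 6.44 and 5.71 against 4.47, 4.50 and 3.78 (1.83, interval 0.95 to 2.71), with 1 of 3 CRT samples above background for each. Xcl1 differed by 1.13 (0.50 to 1.76). All 3 pairs of groups stood apart, each with an adjusted p of 0.369, as did the groups of 5.17% of probes in this direction.

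The MHC class II and antigen-presenting list had a median difference of -0.39 from CRT and -0.54 from SRT, and the macrophage list of -0.34 and -0.32. The 26 background probes had medians of -0.42 from CRT and -0.38 from SRT, in the same range. Against CRT, Siglech was at -1.60 (interval -2.57 to -0.63) and Tyrobp at -1.38 (-2.24 to -0.51). Cell cycle genes had a median difference of -0.64 from CRT and -0.11 from SRT. Against SRT the smallest p belonged to Ccl22, a chemokine of dendritic cells that attracts regulatory T cells, at 4.00, 4.24 and 3.76 in SRT-like, where 1 of 3 samples was above background, and 5.87, 7.03 and 6.01 in SRT (-2.31, interval -3.43 to -1.18). Ccl5 was higher than in SRT by 0.76 (0.27 to 1.24), with 11.86, 12.33 and 12.22 against 11.17, 11.50 and 11.47.

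**Figure D5:**
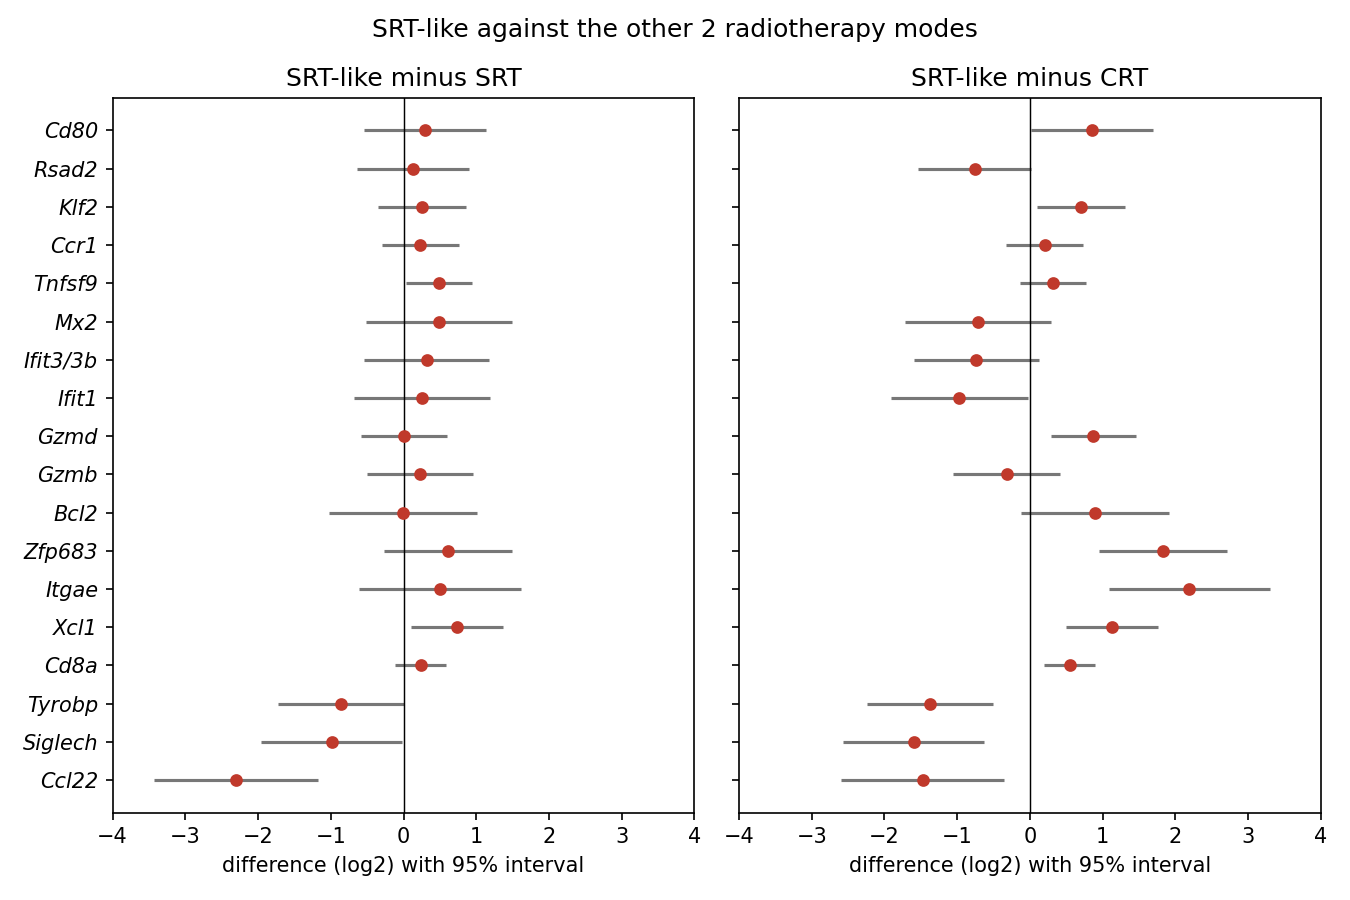
Differences of SRT-like from SRT (left) and from CRT (right) on the log2 scale for 18 named genes, with points at the fitted difference and lines for the 95% interval without adjustment for the number of probes. The intervals of Cd80, Rsad2, Klf2 and Ccr1 cross 0 on the left, while Zfp683, Itgae and Xcl1 lie above 0 and Ccl22, Siglech and Tyrobp below 0 on the right.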

How the data were processed

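The deposited values are log2 normalized counts that the authors made in ROSALIND, per the labels' descriptions; the sources used here do not give its version, background handling or reference probes. Unlogged values came in whole steps of 1 size per sample (100% of values, tolerance 0.02), which gave the molecule counts and depths. Intervals and low values are limited by these counts, and replicate pairs differed by more than counting noise, so each sample counted once. All 12 samples were fitted with limma 3.58.1 (R 4.3.3; lmFit and eBayes without trend, 4 group means, 2-sided), with Benjamini-Hochberg adjustment over 773 probes and a threshold of 0.05. Contrasts were SRT-like against Nontreated, SRT and CRT. The fit was tested on simulated data. Of the probes, 768 matched the RefSeq gene table of GRCm38.p6 by name, and the columns not used numbered 0.

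The text names the probes past the threshold, the 12 largest increases and decreases with an unadjusted p under 0.05, no overlap and all 3 samples of the higher group above background (5 decreases met this), up to 4 members per list by p, 18 fixed T cell genes, the 8 smallest p against SRT and CRT, and cell markers. The other interferon members, Il1rl1, Gzmg and Gzma were added after their values were seen. A few genes that this rule names are not reported here. Members and lists were chosen with earlier results of these data known, so list counts are descriptions. The background probes were chosen from the panel's names. Alternatives changed the samples, scaling, floor, filter, pseudocount, prior, weights or unit, or left out a library.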

Additional observations from a re-analysis of the deposited data

How the results depend on the processing

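The count of probes past the threshold in SRT-like against Nontreated, 5 as reported, was 0 with only the 6 samples, with median centring, with quantile normalization and with the floor at background, 8 with a trend and robust prior, 9 with a pseudocount of 10 or only probes with a mean above 5, and 15 with sample weights or voom. With 1 sample left out it ran from 0 to 9, and with replicate 3 of both Nontreated and SRT-like left out, an alternative chosen after seeing the data, it was 1 (Trdv1, a gamma-delta receptor probe). All calls under these settings were higher in SRT-like. Against SRT the count was 0 throughout. Against CRT it was 0 except for 1 call without Nontreated replicate 2. The cause of these changes was not tested.

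Among the other differences, signs turned only for small ones. With median centring, Cd3e was at -0.076, Cd8b1 at -0.045, Ctla4 at -0.13, Prf1 at -0.12 and Tigit at -0.16. With quantile normalization, Cd3e was at -0.014, Ctla4 at -0.13, Prf1 at -0.061 and Tigit at -0.15. With sample weights, Cd8b1 was at -0.051, Lag3 at 0.00791 and Tigit at -0.058. With samples left out, the differences ran from -0.14 to 0.28 for Cd8b1, -0.0015 to 0.078 for Ctla4, -0.21 to 0.040 for Irf8, -0.25 to 0.16 for Lag3, -0.24 to 0.033 for Slamf6, -0.10 to 0.10 for Tigit and -0.21 to 0.075 for Tnfrsf9. H2-K1, the highest probe of each sample, has a difference of 0 under quantile normalization by construction. No paired analysis was possible because the labels give each sample a number of its own, shared by no sample of the other group. Depth limits the low probes most, since a value of 4.17 for Tnfsf9 in Nontreated replicate 3 rests on 9 molecules.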

Other observations

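Further gene groups of the panel held no probe past the threshold in SRT-like against Nontreated. Of 12 calcineurin and NFAT genes, 7 were higher and 5 lower, with a median of 0.09. The calcineurin subunit genes Ppp3cc and Ppp3ca, whose products carry the calcium signal of the T cell receptor, were not past the threshold. Ppp3cc lay at 8.72, 8.70 and 8.60 in Nontreated and 9.10, 9.00 and 9.03 in SRT-like, a difference of 0.37 ± 0.16 (standard error). Ppp3ca lay at 7.11, 7.44 and 7.38 in Nontreated and 7.77, 7.81 and 7.55 in SRT-like, a difference of 0.40 ± 0.19. Neither gene's groups overlapped. Of 8 genes for subunits of the phosphatase PP2A, 2 were higher and 6 lower, with a median of -0.08. Ppp2r5c measured 9.66, 9.65 and 9.61 in Nontreated and 9.51, 9.45 and 9.41 in SRT-like, a difference of -0.18 ± 0.14 without overlap. Of 7 TGF-beta genes, 4 were higher and 3 lower, with a median of 0.19. Itgav, an integrin chain that helps to activate TGF-beta, differed by 0.47 ± 0.23 without overlap. Of 9 Notch and Wnt genes, 7 were higher with a median of 0.34, and 5 of the 9 were not above background.

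The spread between samples of a group was compared as values, with no test. The median SD over the 773 probes was 0.38 in Nontreated and 0.27 in SRT-like, and 0.22 and 0.19 over the 432 probes above background in all 6 samples. The SD was larger in Nontreated for 519 of the 773 probes. Nontreated replicate 3 had the fewest molecules, 118694, and across probes its correlation with the other controls was 0.960 and 0.964, where these correlated at 0.982 with each other.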
